A study of Homo sapiens with 36 samples.

Results

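The binding landscape of CTCF was described in HEK293T, a human embryonic kidney line that carries the SV40 large T antigen, after transfection with siNC, the control small interfering RNA of a study that also knocked down CHD3, CHD4, CHD5, MBD2 or MBD3. CTCF binding had been read by ChIP-seq, which sequences the DNA fragments that an antibody, here anti-CTCF, pulls down with its protein. The siNC list set 3 immunoprecipitates against input of siNC cells, for which the series has 3 input samples. Its peaks on chromosomes 1 to 22 and X, with several summits of 1 peak counted once, numbered 36270 of the 36855 on all contigs of that list and of the 179333 on the same chromosomes in the 6 lists of the series. The 3 replicates were pooled in this list, so no value has a spread between replicates and no test was made. Intervals are at 95%, exact Poisson for densities, Clopper-Pearson for shares and from binomial order statistics for medians, and cover counting error only, neighbouring peaks being treated as independent. The number of reads behind the list is unknown here. Positions are in hg19 and counted from 1. Fold is the authors' ratio of the fragment pileup at the summit to the local background, taken here with 1 added to each. The letter q stands for the authors' adjusted p-value of the peak.

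CTCF is a DNA-binding protein with a row of zinc fingers that read a long, oriented motif. It stops cohesin as cohesin extrudes chromatin loops, and pairs of convergently oriented CTCF sites anchor loops and the borders of topologically associating domains. It was first known as a repressor of MYC and as the factor that insulates enhancers from promoters at imprinted and globin loci, and many of its sites are bound in most cell types.

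The clustered protocadherin genes on chromosome 5, which encode cell adhesion proteins of neurons, have alternative promoters, many of which CTCF binds in cells that use them. In the PCDHA cluster, 6 of 15 genes had a peak between 500 bp before and 100 bp after the gene start, 2 of them with a −log10 q of at least 10. The share of all promoters with a peak was not computed, so these counts have no background. Fold was 9.29 at PCDHA11, 5.36 at PCDHA8, 4.89 at PCDHA3, 4.83 at PCDHA7, 3.95 at PCDHA10 and 2.72 at PCDHA1. Peaks starting 100 to 1500 bp downstream of the start, on the side of the first exon, were found at PCDHA8, with a fold of 7.83, and at PCDHA5, with a fold of 4.54. PCDHA8 alone had both. The promoters are shown because their letters can be set beside the presence of a peak. The lines below are 50-base stretches of the gene strand from RefSeq (GRCh38.p14), on chromosome 5, and capitals mark the 7 letters TGTCGCT, a choice made after the promoters had been read.

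PCDHA11, peak at promoter: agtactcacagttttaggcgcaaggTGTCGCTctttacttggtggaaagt
PCDHA8, peak at promoter: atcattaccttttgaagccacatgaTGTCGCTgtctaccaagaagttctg
PCDHA7, peak at promoter: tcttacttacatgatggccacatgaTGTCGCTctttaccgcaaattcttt
PCDHA10, peak at promoter: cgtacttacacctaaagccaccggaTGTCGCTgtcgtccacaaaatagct
PCDHA1, peak at promoter: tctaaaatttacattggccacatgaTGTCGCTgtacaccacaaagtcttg
PCDHA2, no peak at promoter: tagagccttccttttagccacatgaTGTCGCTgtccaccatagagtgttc
PCDHA4, no peak at promoter: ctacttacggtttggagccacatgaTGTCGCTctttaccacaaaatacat
PCDHA12, no peak at promoter: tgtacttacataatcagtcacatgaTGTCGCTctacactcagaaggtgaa
PCDHA9, no peak at promoter: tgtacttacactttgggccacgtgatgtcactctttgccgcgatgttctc

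The letters began 41 to 84 bases before the start in these genes. They were present in 5 of the 5 promoters with a peak that the RefSeq table holds, and in 5 of 8 without one (PCDHA2, PCDHA4, PCDHA5, PCDHA6 and PCDHA12). PCDHA9 differed from the letters at that place, and in PCDHAC1 and PCDHAC2 they were not found. Over all 35116 RefSeq promoters, each taken from 250 bases before to 50 after the start and searched on both strands, 617 held the letters, or 1.76%. PCDHA promoters with and without a peak thus both held the letters. In the PCDHG cluster 9 of 22 genes had a promoter peak, 4 of them with a −log10 q of at least 10, with the highest fold at PCDHGA10 (8.19) and PCDHGA11 (8.10), and the letters were present in 1 of the 9 (PCDHGA3) and in 2 of 11 promoters without a peak that the table holds. All 3 protocadherin clusters lay on low local background, with medians of 4.44 fragments per bp in PCDHA, 4.09 in PCDHB and 4.62 in PCDHG, against 10.3 over all peaks.

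Over the whole genome there were 12.8 peaks per sequenced megabase (12.7 to 12.9), and the peaks covered 0.407% of sequenced bases. Summits of neighbouring peaks were a median of 39.8 kb apart (39.1 to 40.6 kb, n = 36247), and the mean distance was 81.3 kb. The 5th and 95th percentiles were 2.03 and 278.5 kb. The closest pair of summits stood 296 bp apart. The distribution was thus skewed to the right, with a long shoulder of short distances below 10 kb.

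**Figure D1:**
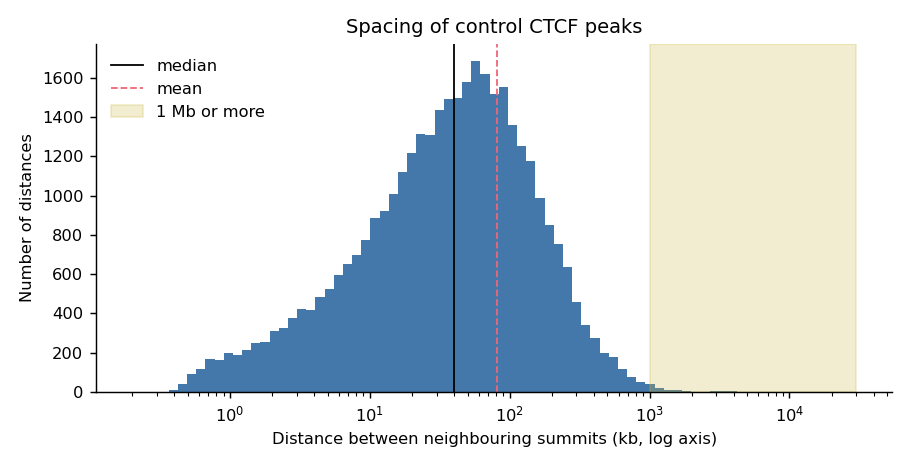
Distances between summits of neighbouring control CTCF peaks within a chromosome, in kb on a log axis, against the number of distances. The solid line is the median of 39.8 kb, the dashed line the mean of 81.3 kb, and the shaded band holds the 88 distances of 1 Mb or more, centromeric gaps included.

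Taken from each peak to its nearest neighbour on either side, the median distance was 17.9 kb (17.6 to 18.3 kb). Another summit lay within 1 kb for 3.92% of peaks, within 2 kb for 9.31%, within 5 kb for 21.2% and within 10 kb for 34.9% (34.4 to 35.4%). Within 100 kb the share was 91.8%. At the other extreme, 782 peaks (2.16%) had no neighbour within 200 kb and 55 (0.152%) none within 500 kb. The most isolated peak, chr21:14425305-14425492, stood 1067 kb from the next, with a fold of 4.80 and a pileup of 18 fragments per bp. The distance on its other side crossed the centromeric gap, so its isolation there includes unsequenced bases.

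Close neighbours resembled each other in fold. Across pairs of neighbouring peaks less than 1 kb apart, Spearman's correlation of the folds was 0.354 (n = 732), and it was 0.272 at 1 to 2 kb (n = 1057), 0.175 at 2 to 5 kb (n = 2431) and 0.09 at 5 to 10 kb (n = 3006). From 10 to 500 kb it was 0.07 or less, and beyond that it was 0.143 at 500 to 1000 kb (n = 467) and 0.125 over the 88 longest distances. These are descriptions across peaks of 1 pooled list, and close pairs share their local background. Pairs beside centromeric gaps, where fold was low, are among the close ones, and the correlations were not computed without them. Crowded peaks were slightly lower in fold, with those near centromeric gaps included. Among the 7255 most crowded peaks, with the nearest neighbour under 4.66 kb away, the median fold was 4.99, against 5.41 among the 7254 most isolated, while the median background was 10.7 and 8.53 fragments per bp in the same order. Median pileup at the summit was 59 in the crowded and 52 in the isolated peaks.

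Chromosomes differed in density by 2.64-fold. Chromosome 19 was the densest with 22.7 peaks per sequenced Mb (21.4 to 24.0), followed by 22 with 21.1 (19.6 to 22.7) and 17 with 20.5 (19.5 to 21.5). The counting intervals of these 3 overlapped. Chromosome 1 followed with 15.9 (15.4 to 16.5). The sparsest were 18 with 8.59 (7.93 to 9.28), 13 with 8.74, 4 with 8.91 and 21 with 9.06 (8.09 to 10.1), and their intervals overlapped. Median spacing was 21.4 kb on chromosome 19 and 65.6 kb on chromosome 18, and 50.9% of peaks on 19 had another within 10 kb, against 21.1% on 18.

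**Figure D2:**
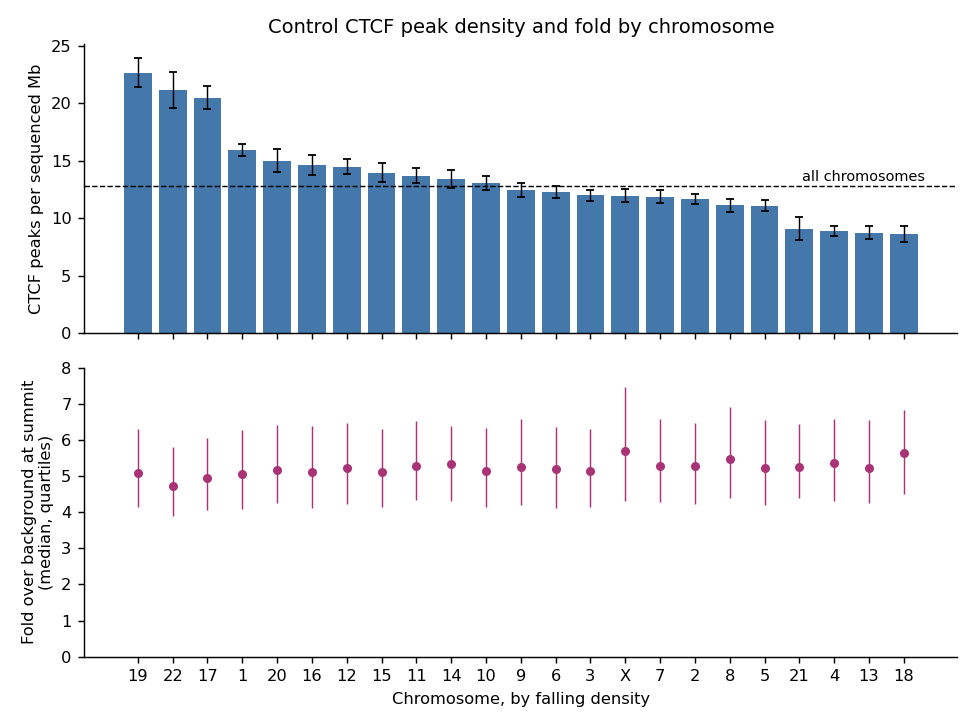
Upper panel: control CTCF peaks per sequenced Mb for each of 23 chromosomes, from the densest to the sparsest, with exact 95% Poisson intervals and the mean of all chromosomes as a dashed line at 12.8. Lower panel: median and quartiles of fold over background at the summit. Density differed 2.64-fold while median fold stayed between 4.74 on chromosome 22 and 5.68 on X.

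Median fold was lowest on the dense chromosomes 22 (4.74) and 17 (4.96) and highest on X (5.68) and 18 (5.64). Across the 23 chromosomes, Spearman's correlation between density and median fold was -0.764, and between density and median local background it was 0.627. The points share 1 list and 1 background estimate, and the part of background in the relation was not tested. Chromosome X stood apart in shape, with the highest share of peaks with several summits (5.42%) and the widest median peak (324 bp), against 2.67% and 304 bp over all peaks.

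Local background, which enters every fold, was uneven along chromosomes. It was solved from the authors' fold and p-value, and its median per arm was lowest on 18p (6.75 fragments per bp), 4p and 18q (7.11 each) and 5p and Xp (7.46 each), and highest on 22q (12.8) and 1q (13.1). On chromosome 4 it was 7.11 on the short arm and 10.3 on the long arm, and on chromosome 5 it was 7.46 on the short arm and 10.3 on the long arm. Median pileup was also lower on these short arms, at 45 on 4p against 61 on 4q, and at 48 on 5p against 60 on 5q, so the median folds were close, at 5.56 and 5.30 on chromosome 4 and 5.47 and 5.13 on chromosome 5. What these arm differences come from was not tested. DNA content per arm and read mapping were not measured here.

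Pooled over chromosomes, the ends were somewhat denser in peaks than the rest. The last 5 Mb of 41 arm ends held 14.2 peaks per Mb (13.7 to 14.7), against 12.7 per sequenced Mb in the rest (12.5 to 12.8). The ends were counted over their full 5 Mb, unsequenced bases included. Each end gave 5 Mb whatever the size of its chromosome, so small chromosomes weigh more in the ends than in the rest. Ends were not set against the density of their own chromosomes. The mean of the ends hides a wide range. The short-arm end of chromosome 19 held 30.4 per Mb, whereas the short-arm ends of 10 and 8 and the long-arm end of 4 held 5.8 per Mb each, and 22 of the 41 ends were above the genome mean. The 29 peaks at the end of 8p had a median fold of 7.30, against 5.22 over all peaks.

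Cut into 2833 windows of 1 Mb, the genome had a median of 12 peaks per window, with 3 at the 10th and 23 at the 90th percentile. No peak lay in 24 windows (0.847%). The densest 10% of windows held 23.1% of peaks. The densest window, chr1:156000001-157000000, held 56 peaks with a median fold of 4.93 and was followed by chr12:56000001-57000000 with 51. Chromosome 19 gave 5 of the 8 densest windows, with 46 to 50 peaks each. The window with the protocadherin genes, chr5:140000001-141000000, held 43.

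Chains of at least 5 peaks with each summit within 10 kb of the next were called clusters. There were 105 of them, with 723 peaks or 1.99% of all (1.85 to 2.14%), and 65 of the 105 had exactly 5 peaks. The 14 clusters within 1 Mb of a centromeric gap differed from the other 91 in fold and background. The median fold of a cluster had a median of 1.96 near the gaps, against 4.76 away from them, and the median background was 237 fragments per bp near the gaps, against 10.7 away from them. The ranges of cluster median fold overlapped, at 1.46 to 5.46 near the gaps and 1.96 to 8.36 elsewhere. Among the 100 highest pileups in the list 85 lay within 1 Mb of a centromeric gap, as did 1 of the 100 highest folds. Over all peaks, 527 (1.45%) lay that near a gap. The highest pileup, 7168 fragments per bp at chr1:121484377-121485379, had a fold of 1.63. What part repeated sequence and read mapping have in these peaks was not tested.

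**Figure D3:**
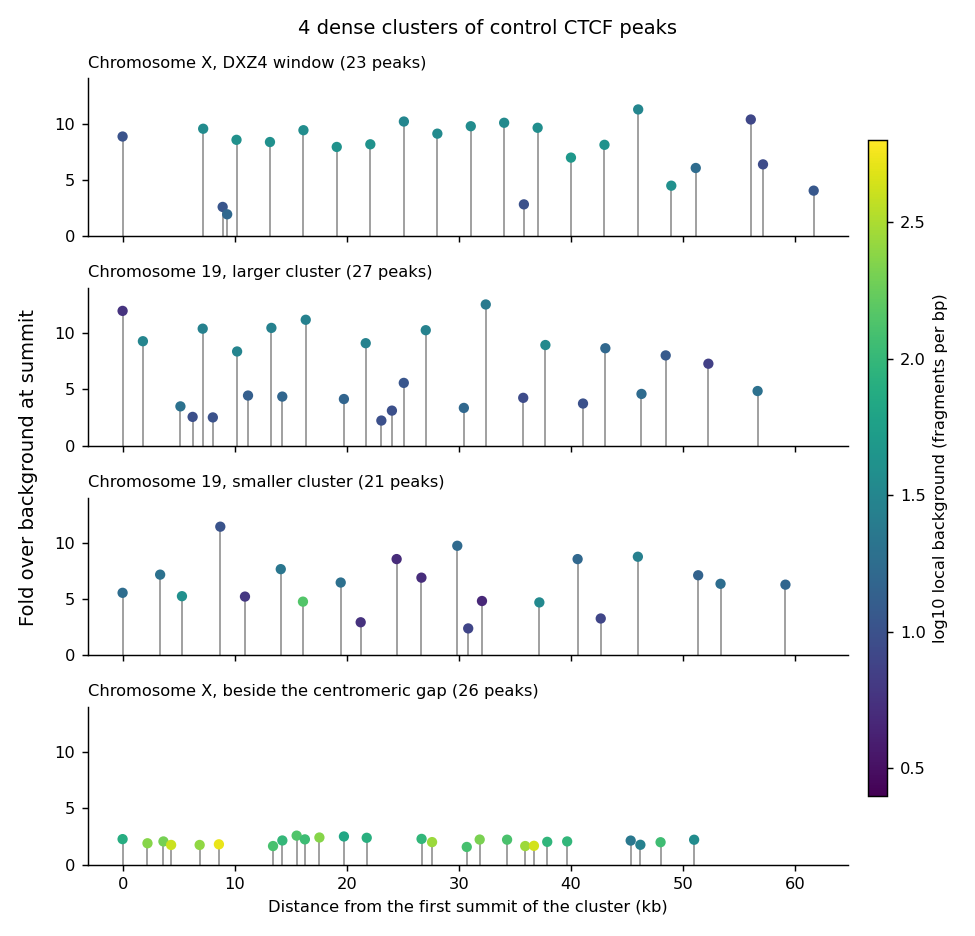
Each stem is 1 control CTCF peak, placed by its distance in kb from the first summit of its cluster, with fold over background at the summit as height and log10 local background as colour. The upper 3 clusters show strong peaks at repeated distances, and the lowest, beside the centromeric gap of X, shows 26 peaks between 1.58 and 2.59 fold on high background.

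The DXZ4 macrosatellite on chromosome X, a tandem repeat at the hinge between the superdomains of the inactive X and a known CTCF array on that chromosome, held a regular cluster. It ran over chrX:114953274-115015256 with 23 peaks and a median fold of 8.36, and 12 of its 22 spacings lay between 2953 and 3007 bp (mean 2983 ± 13.8 bp, SD over these 12 spacings, which were selected as those of 2.9 to 3.1 kb after the repeat had been seen, so that the SD is limited by the selection). Weak peaks with a fold of 1.94 to 2.83 stood among the strong ones.

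The largest cluster of all, chr19:50593973-50650980, had 27 peaks with folds of 2.23 to 12.5. Strong and weak peaks were interspersed there, and distances to the next peak but 1 repeated, 10 of 25 lying between 5217 and 5499 bp (mean 5346 ± 70.7 bp). A cluster of 21 peaks at chr19:48407298-48466853 gave 8 of 19 such distances between 5296 and 5476 bp (mean 5386 ± 53.3 bp). Both means likewise rest on distances selected from 5.2 to 5.5 kb after the repeat had been seen. The arrays of small NF90-associated RNA genes lie in the same chromosome band by textbook knowledge, and overlap with them was not tested. Other large clusters beyond the centromeres were chr17:61934456-61996995 with 13 peaks, in the growth hormone gene cluster, chrX:56790247-56815581 with 10 peaks and a median fold of 7.85, and chr8:86812554-86837450 with 10 peaks and a median fold of 1.96. With −log10 q of at least 10 required, the cluster on chromosome 17 kept 8 of 13 peaks and was no longer a cluster, and that on chromosome 8 kept 0 of 10. The larger and the smaller cluster on chromosome 19 kept 23 and 17 peaks, DXZ4 kept 20 and the cluster of 10 on X kept 9, all still in clusters.

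Deserts, stretches of at least 1 Mb between neighbouring summits with no centromeric gap inside, numbered 68 and spanned 85.5 Mb or 3.02% of sequenced bases. Smaller assembly gaps inside them were not subtracted. The longest ran from 58309098 to 61066981 on chromosome 4 (2.76 Mb), between peaks of 4.33 and 10.9 fold. The next were on 15 (1.80 Mb), 2 (1.78 Mb), 1 (1.74 Mb) and 14 (1.73 Mb). Chromosome 4 had 8 deserts with 11.1 Mb in all, chromosome 2 had 7, and chromosome 22 had none. Median fold of the 135 distinct flanking summits was 5.81, against 5.22 over all peaks.

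Most peaks were narrow and symmetric. Widths had a median of 304 bp with quartiles of 246 and 361 bp. In the 35300 peaks with 1 summit it lay a median of 15 bp from the centre of the peak, and from 36.0 to 63.9% of the width between the 5th and 95th percentile. Several summits were found in 970 peaks (2.67%), of which 795 had 2 and 113 had 3. These had a median width of 656.5 bp, against 301 bp for peaks with 1 summit, and a median fold of 5.54, against 5.22.

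**Figure D4:**
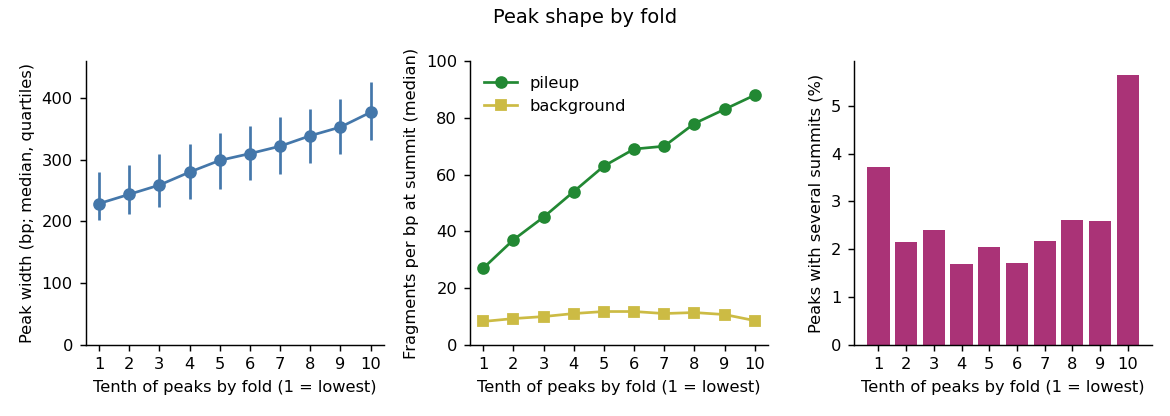
Control CTCF peaks in 10 classes of equal size by fold, from the lowest to the highest. Left, peak width in bp as median and quartiles; middle, median pileup and local background at the summit in fragments per bp; right, share of peaks with several summits in percent. Width and pileup increase with fold, while several summits are most frequent at both extremes, with 3.72% in the lowest and 5.65% in the highest class.

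Width followed fold, with a median of 377 bp in the strongest 10% of peaks and 229 bp in the weakest 10%. Pileup did likewise, with medians of 88 and 27 fragments per bp in the same order, while median background was 8.53 and 8.22. Pileup is part of fold, and peak borders were called from the same data, so neither trend is independent of fold. Fold itself had a median of 5.22, with 3.096 at the 5th and 8.96 at the 95th percentile. A fold of at least 10 was reached by 976 peaks (2.69%), and a −log10 q of at least 10 by 78.6%. Below the 3 strongest peaks of the list, the next in fold were chr12:94034221-94035090 (22.4), chr21:26734516-26734876 (21.6), chr6:34231117-34231494 (21.2) and chr11:61734824-61735105 (20.99).

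Only 164 peaks (0.452%) were wider than 1 kb, 162 of them with several summits, and their median fold was 6.98. Of the 164, 25 lay on X, which held 1807 (4.98%) of all peaks. The 15 widest peaks and the 15 with most summits made up 21 peaks. Of these, 6 overlapped genes that were entered by hand after the positions had been seen. Genes at the others are not given here, so 6 is not a count of these peaks in genes. The share of all peaks in genes was not computed. The widest, chr16:2811646-2814617, was 2972 bp long with 7 summits and lay in SRRM2, which encodes a large splicing protein. The peaks with 8 summits were chr10:102120894-102123046 in SCD, the stearoyl-CoA desaturase gene, and chr1:205684617-205686752 in NUCKS1, which encodes a nuclear DNA-binding protein. The other 3 of the 6 lay in EEF1A1 (translation elongation factor), ACTG1 (gamma actin) and EEF1A1P5, a processed pseudogene of EEF1A1. The peak on the pseudogene, chr9:135894817-135896497, was 1681 bp long with 5 summits, a fold of 9.64 and a pileup of 512 fragments per bp. The peak in EEF1A1 itself was 1952 bp long with 6 summits, a fold of 8.96 and a pileup of 250. The parts of transcripts that these peaks cover were not determined, and the share of signal from binding in them was not tested.

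Known CTCF loci were examined in 37 windows with 18.7 Mb in all, of which 35 held a peak. They held 488 peaks or 26.1 per Mb (23.8 to 28.5), and 26 of the windows were denser than the genome mean of 12.8. Some of these 26 held few peaks and had intervals that hold the mean. Examples are the CTCF gene (2 peaks, 2.69 to 80.3 per Mb) and alpha-globin (3 peaks, 5.16 to 73.1 per Mb). How often windows of such sizes placed elsewhere exceed the mean was not computed. The windows and gene starts were entered by hand and are approximate, and gene content was not matched. The loci were chosen as known CTCF loci and with earlier results of these data known, so a higher density was partly set beforehand. No peak lay in the short windows around PEG3 (35 kb) and MEST (25 kb), both imprinted and expressed from the paternal allele.

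**Figure D5:**
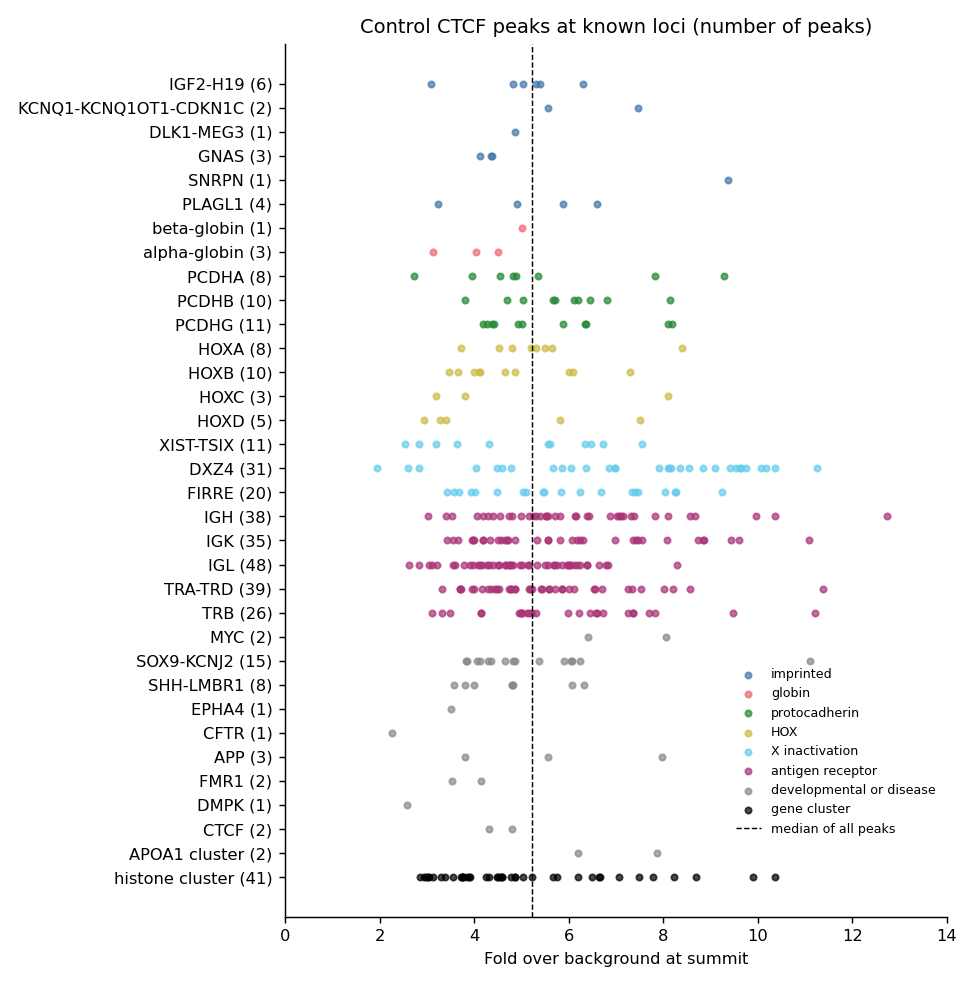
Each point is 1 control CTCF peak within the window of a known locus, placed by its fold over background at the summit, with the number of peaks in parentheses and the locus class as colour. The dashed line is the median fold of all peaks, 5.22. The MHC window, with 86 peaks up to 15.7 fold, and the windows around PEG3 and MEST, with no peak, are not drawn.

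At the imprinted IGF2-H19 locus, where CTCF bound upstream of H19 on the maternal allele insulates IGF2, there were 6 peaks. The nearest to the H19 start, chr11:2021079-2021278, stood 2.19 kb from it with a fold of 5.30, and a second, chr11:2023755-2024332, had 2 summits and a fold of 4.83. Both folds were near the genome median of 5.22, but the pileups were low, at 20 and 21 fragments per bp against a median of 59 over all peaks. The −log10 q was 8.33 and 7.72, below the lower quartile of 11.1 over all peaks, so neither peak is kept when −log10 q of at least 10 is required. The strongest peak of the window was chr11:2172617-2173490 with a fold of 6.30. Other imprinted windows held 1 peak at SNRPN, with a fold of 9.37, 1 at DLK1-MEG3 (4.86), 2 at KCNQ1, 3 at GNAS and 4 at PLAGL1. Most of these peaks were not at the gene starts. The nearest stood 45.6 kb from the start of SNRPN, 25.7 kb from MEG3 and 167 kb from KCNQ1OT1. It stood 9.76 kb from GNAS and 5.71 kb from PLAGL1.

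The X inactivation loci had the 3 densest of the 37 windows. XIST-TSIX, the noncoding RNA gene that silences the X and its antisense partner, had 11 peaks in 70 kb, or 12.3 times the genome mean, with folds of 2.54 to 7.56. The strongest, chrX:73070933-73071832, was 1.03 kb from the XIST start. FIRRE, a noncoding RNA locus with repeated CTCF sites, had 20 peaks in 140 kb (11.2 times the mean), with folds of 3.43 to 9.25, and the peak nearest its start was 0.326 kb away with a fold of 5.48. DXZ4 followed with 31 peaks in 250 kb (9.69 times the mean).

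The HOX clusters, which hold patterning genes in the order of their expression along the body, had 10 peaks in HOXB, 8 in HOXA, 5 in HOXD and 3 in HOXC, in a window of 205 kb for HOXB and 120 kb for each of the others. Per Mb HOXA was highest with 66.7 (28.8 to 131), then HOXB with 48.8 (23.4 to 89.7), HOXD with 41.7 (13.5 to 97.2) and HOXC with 25 (5.16 to 73.1), and these intervals overlapped. The strongest of each had a similar fold, 7.29 in HOXB, 8.40 in HOXA, 7.51 in HOXD and 8.10 in HOXC. In HOXA the 8 peaks ran from 27176051 to 27236199 on chromosome 7, and chr7:27219364-27219666 was the strongest. HOXD had 3 weak peaks, with folds of 2.93 to 3.41, between stronger ones of 5.81 and 7.51.

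Antigen receptor loci, which rearrange only in lymphocytes, carried many peaks in this kidney line. IGL held 48, TRA-TRD 39, IGH 38, IGK 35 and TRB 26, at 2.36 times the genome mean in IGH to 4.22 times in IGL. The strongest was in IGH, chr14:107012666-107013018, with a fold of 12.7, above 99.4% of all peaks. Median folds were 4.90 in IGL to 5.75 in IGH, close to the 5.22 of all peaks.

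At MYC, a growth regulator, 2 peaks flanked the start, chr8:128746158-128746503 with a fold of 6.40 and chr8:128752658-128753148 with a fold of 8.07, the nearer of them 1.94 kb from it. The beta-globin window had 1 peak, chr11:5226138-5226347, with a fold of 5.00, 21.8 kb from HBB. The alpha-globin window had 3, with folds of 3.13 to 4.50. In the SOX9-KCNJ2 interval, a developmental domain border, 15 peaks in 1965 kb gave 7.63 per Mb, below the genome mean, and the strongest, chr17:69617080-69617492, had a fold of 11.1. SHH-LMBR1, where the limb enhancer of SHH lies, was also sparse, with 8 peaks or 7.27 per Mb (3.14 to 14.3), an interval that holds the genome mean. EPHA4 and CFTR had 1 peak each, with folds of 3.51 and 2.27, and the CFTR peak, chr7:117121241-117121426, had a −log10 q of 1.35, close to the lowest in the list, 1.302. The CTCF gene itself had 2 peaks, with folds of 4.30 and 4.80.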

How the data were processed

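The list set 3 CTCF immunoprecipitates against input of siNC HEK293T cells, for which the series has 3 input samples. Its name gives the 3 replicates of the immunoprecipitate together, which was read here as pooling by the authors. The name gives neither the step at which they were pooled nor the number of inputs used. Per the submitters' processing notes, the build was hg19 and the tools were MACS2 2.1.2, Bowtie2 2.3.4, SAMtools 1.9, FastQC 0.11.7, deepTools 3.5.0 and bedtools 2.25.0. What each tool did, and with which settings, is not given in the sources used here. Deposited columns hold the authors' fold (a ratio over local background at the summit), the authors' −log10 p and −log10 q, a deposited display score, not used, and the deposited summit offset.

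From these, lines sharing start and end were joined with the summit of highest fold, giving 36270 peaks from 37509 lines. A Poisson model then gave pileup and background from the deposited fold and p, within 0.01% for 99.9% of peaks. In it, fold was pileup plus 1 over background plus 1. Python 3.11.15, numpy 2.4.6, scipy 1.17.1 and pandas 2.3.3 were used. Sequenced lengths, centromeric gaps, locus windows, positions of the genes at wide peaks and protocadherin starts in hg19 were entered by hand from general knowledge, so distances to gene starts are approximate. Spacing, clusters, deserts and the solved pileup were tested on simulated data. Members, loci and lists were chosen with earlier results of these data known. Named regions are the leading ones by fold, width, summits, cluster size, window count and desert length, and each locus's strongest and nearest peak. The other 5 lists were only counted. A gene at 1 further wide peak is not reported here.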

Additional observations from a re-analysis of the deposited data

Results flagged for a closer look

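Signal appeared in rows that the counts above leave out. In the siNC list 33 peaks were placed on chromosome Y, 24 of them in its pseudoautosomal ends and 9 outside. The strongest outside, at 5205866 to 5207022 on Y, had a fold of 15.4. Whether these cells carry a Y chromosome was not tested, so the placement alone does not show binding on Y. Haplotype contigs of hg19 held 365 peaks, and unplaced and unlocalised contigs held 187. No control sample without immunoprecipitation has a list of its own here, so these counts were set against no background level, and their source was not tested.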

How the results depend on the processing

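No paired analysis was possible because the 3 replicates were pooled in 1 list, and leaving out a replicate was not possible for the same reason. Raising −log10 q to at least 10 gave 10.1 peaks per Mb, a median spacing of 51.7 kb, 29.2% of peaks within 10 kb of another, 42 clusters, 126 deserts and a median width of 320 bp. At least 5 gave 11.8 per Mb, 43.7 kb, 32.6%, 69 clusters and 309 bp. Keeping only the peaks above the median fold gave 6.40 per Mb, 89.1 kb, 18.4%, 10 clusters, 196 deserts, 340 bp, 2.95% with several summits and 258 peaks at known loci. Counting every summit gave 13.2 per Mb, 37.4 kb, 38.3%, 195 clusters, 307 bp and 5.89%. Leaving out peaks wider than 1 kb gave 2.24% with several summits. Full chromosome length gave 11.9 per Mb. The share of peaks near another was 21.2% at 5 kb and 53.3% at 20 kb. Clusters numbered 37 with a chain distance of 5 kb, 411 with 20 kb and 1188 with at least 3 peaks. Deserts numbered 534 at 500 kb and 1 at 2 Mb. Leaving out peaks within 1 Mb of a centromeric gap, chosen after seeing the data, gave 12.6 per Mb and 91 clusters. Each setting removes, adds or regroups peaks, or changes a cut-off or the length over which density is taken. Density over all contigs was not run, since contig lengths were not used. Depth is unknown, so peaks too weak to be called cannot be counted, and counts of peaks, clusters and deserts move with the threshold.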
